A study of Mus musculus with 5 samples.

Results

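Receptor tyrosine kinases are membrane proteins that bind a ligand outside the cell and phosphorylate tyrosines inside it. A list of 51 such genes was taken by gene symbol from the 46959 genes counted in each library, and all 51 were found. The cells were D4M.3A, a melanoma line from a C57BL/6 mouse, used at passages 7 to 12. The caMNK group (n = 3 libraries) carried constitutively active MNK1, a kinase downstream of ERK and p38 whose known substrate is the cap-binding factor eIF4E. The pBABE group (n = 2 libraries), the control of the series, carried the vector pBABE. The labels do not say whether either line is a clone or which vector carries caMNK, and the line and the treatment cannot be told apart. Total RNA was sequenced and reads were counted per gene.

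Ligand binding joins receptors into pairs or clusters, and the phosphorylated tails recruit adaptors that switch on RAS and ERK, phosphoinositide 3-kinase and phospholipase C. Melanocytes depend on KIT, the receptor for stem cell factor, whereas melanomas of a mesenchymal, poorly pigmented state are known for AXL, PDGF receptors and, in some cases, EGFR. Several members of the family, ERBB3, PTK7, RYK and EPHB6 among them, have kinase domains with little or no catalytic activity and signal through partners.

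Library totals lay between 27827199 and 48794336 counts for caMNK and between 32963884 and 42730166 for pBABE. Mknk1 measured 167, 155 and 168 CPM (read counts relative to the library total, scaled by edgeR's TMM factors) in the caMNK libraries, against 15.2 and 16.7 CPM in the pBABE libraries. Of 8 melanocyte markers, Mitf was above 1 CPM in some library, at 4.35 to 6.48 CPM in caMNK and 5.93 and 6.26 CPM in pBABE. Tyrp1, Dct and Slc45a2 had no count in any library, and the summed level of the 8 markers was 4.86 to 6.81 CPM in caMNK and 6.29 to 6.54 CPM in pBABE. Mitochondrial mRNAs rose for 6 of the 10 tested among 13, where 4.42% of all tested genes were called higher, and their sum in caMNK was 18772 to 21665 CPM, against 12290 to 13533 CPM in pBABE. Of 11 listed RNAs without a protein product, 6 were tested and 5 rose, Malat1, Neat1, Snhg1, Gas5 and Snhg12. Small RNA genes lie inside Snhg1, Gas5 and Snhg12. The 11 summed to 771 to 1067 CPM in caMNK and 494 to 510 CPM in pBABE. The part of these and the mitochondrial RNAs in the receptor results was not tested.

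The counts cover whole gene bodies with their introns: for 43 of the 51 receptor genes the length in the files matched the span from first to last base in GENCODE, and for 0 it matched the summed exons. Where genes overlap, on the same or the other strand, their reads could not be told apart. An overlapping gene had 10% or more of the receptor's counts for 6 members, Fgfr2, Ptk7, Epha1, Csf1r, Erbb2 and Fgfr3. Levels of different genes are therefore compared as CPM per kilobase of deposited length, and the 6 genes are named with their partners below.

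A receptor was taken as expressed in pBABE when both pBABE libraries held at least 1 CPM. This held for 25 of the 51 receptors (49.0%), beside 29.6% of all 46959 genes. The 46959 include pseudogenes and non-coding genes, whereas all 51 receptors are protein-coding, so these shares compare unlike sets. The 25 include the Fgfr2 entry, most of whose counts come from other genes. Without it the share was 24 of 50. Ptk7, Epha1, Csf1r and Erbb2, which share reads with overlapping genes, are also among the 25. How many of their counts are their own was not measured. In the comparison of caMNK with pBABE, 31 receptors had enough counts to be tested. Ptk7 rose, Flt1 and Ephb2 fell, and 28 did not pass (edgeR quasi-likelihood test, adjusted p under 0.05 over all 17026 genes tested). The 3 calls are 9.68% of the tested receptors, and 7.94% of all tested genes were called, so the receptors' share lay near the background. By direction, 3.23% of tested receptors and 4.42% of all tested genes were called higher, and 6.45% and 3.52% lower. With plain library totals in place of TMM factors the same 3 receptors were called, while 5.87% of all genes were called higher and 2.73% lower. The median log2 fold change of the tested receptors was -0.04, against -0.0021 over all tested genes.

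The promoters of Axl, the receptor with the highest level, and of the 3 called receptors are shown as the stretches where transcription of the genes that carry these results begins. Each runs from 250 bases before to 50 after the RefSeq start on build GRCm38.p6, all on the minus strand, at chr7:25788684-25788983 for Axl, chr17:46629455-46629754 for Ptk7, chr5:147725962-147726261 for Flt1 and chr4:136835963-136836262 for Ephb2. Capitals mark the single motif match found among these 4 windows, the NF-Y motif read on the other strand.
Axl: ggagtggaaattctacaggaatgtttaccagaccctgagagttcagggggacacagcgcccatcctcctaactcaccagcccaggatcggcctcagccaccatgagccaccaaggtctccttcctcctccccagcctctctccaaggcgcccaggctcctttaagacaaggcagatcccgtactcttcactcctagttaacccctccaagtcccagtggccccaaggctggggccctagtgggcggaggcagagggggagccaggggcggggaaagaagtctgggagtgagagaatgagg
Ptk7: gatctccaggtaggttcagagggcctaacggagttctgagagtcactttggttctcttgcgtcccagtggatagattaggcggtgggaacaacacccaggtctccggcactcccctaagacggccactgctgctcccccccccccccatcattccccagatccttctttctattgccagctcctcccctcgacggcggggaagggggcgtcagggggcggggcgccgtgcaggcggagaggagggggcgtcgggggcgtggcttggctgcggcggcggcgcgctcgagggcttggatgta
Flt1: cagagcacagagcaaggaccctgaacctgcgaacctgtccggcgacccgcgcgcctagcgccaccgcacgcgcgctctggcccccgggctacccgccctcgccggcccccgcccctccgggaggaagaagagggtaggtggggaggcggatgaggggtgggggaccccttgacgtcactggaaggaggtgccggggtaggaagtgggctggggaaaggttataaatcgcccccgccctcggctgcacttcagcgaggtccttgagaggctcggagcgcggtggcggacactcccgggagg
Ephb2: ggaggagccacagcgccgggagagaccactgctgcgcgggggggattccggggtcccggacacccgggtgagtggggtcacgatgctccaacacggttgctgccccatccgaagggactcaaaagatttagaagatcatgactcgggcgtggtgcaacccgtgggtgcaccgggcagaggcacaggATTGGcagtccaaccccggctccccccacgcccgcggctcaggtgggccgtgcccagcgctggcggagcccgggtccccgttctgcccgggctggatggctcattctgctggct

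Promoter sequences were matched for 44 of the 51 receptors. The AP-1 motif TGANTCA was in the promoters of 3 receptor genes, Ddr1, Met and Ror2 (6.82%), and in 7.81% of all 32851 promoters. The E-box CACGTG was in 4 (9.09%, against 7.15%), the E-box CATGTG in 4 (9.09%, against 14.2%), the NF-Y motif CCAAT in 12 (27.3%, against 37.4%) and the EGR motif GCGTGGGCG in 0 (against 0.612%). Both strands were searched, and none of these motifs contains another. A match is a description of the letters only. The 4 promoters shown hold between 60.3% and 70.7% G and C, against a median of 52.7% over all promoters.

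Axl, the receptor for the vitamin K-dependent ligand GAS6 and a TAM family member with TYRO3 and MERTK, had the highest level per kilobase of all 51 receptors. It measured 994, 1035 and 1015 CPM in the caMNK libraries, against 1195 and 1182 CPM in the pBABE libraries. All caMNK libraries lay below both pBABE libraries, but the difference did not pass the test (log2 fold change -0.23, SE 0.079, edgeR adjusted p = 0.11). Per kilobase, Axl stood at 32.3 CPM in caMNK and 37.8 CPM in pBABE. Tyro3 measured 27.5, 24.7 and 30.7 CPM in caMNK and 32.0 and 32.2 CPM in pBABE (-0.22, SE 0.11, adjusted p = 0.255). Mertk measured 66.3, 67.2 and 61.8 CPM in caMNK and 54.4 and 64.4 CPM in pBABE (0.13, SE 0.10, adjusted p = 0.449), and its groups overlapped. All 3 TAM receptors were thus expressed. Of their ligands, chosen after their values were seen, Gas6 measured 3.36 ± 0.746 CPM in caMNK and 2.47 ± 0.684 CPM in pBABE, and Pros1, protein S, 23.9 ± 2.39 and 24.5 ± 2.94 CPM (mean ± SD, n = 3 and 2). Neither passed the test.

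**Figure D1:**
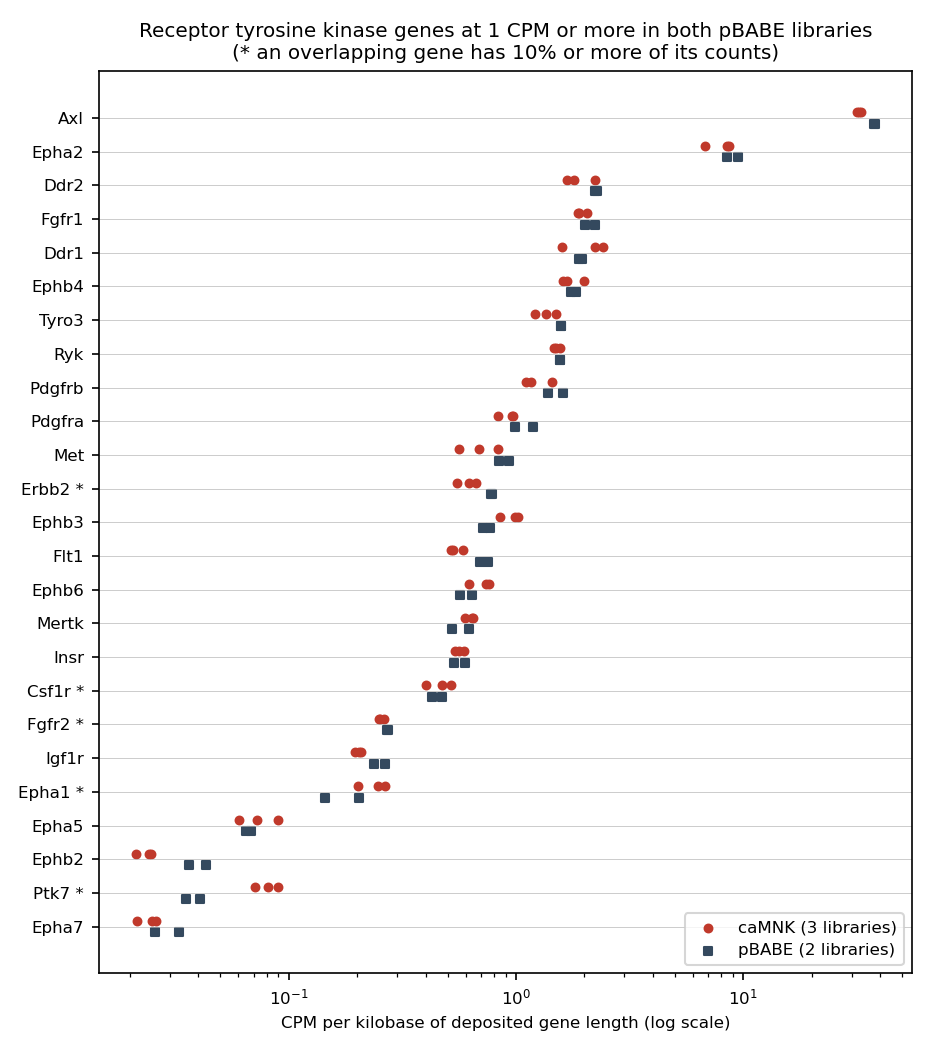
CPM per kilobase of deposited gene length on a log axis, for the 25 receptor genes with at least 1 CPM in both pBABE libraries; each point is 1 library, circles caMNK (n = 3) and squares pBABE (n = 2). Axl stands at 32.3 CPM per kilobase on average in caMNK and 37.8 in pBABE, above Epha2 at 7.98 and 8.98.

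After Axl, the order per kilobase in pBABE was Epha2, Ddr2, Fgfr1, Ddr1, Ephb4, Tyro3, Ryk, Pdgfrb and Pdgfra. Epha2, a receptor for membrane-bound ephrin-A ligands, measured 237, 192 and 244 CPM in caMNK and 239 and 266 CPM in pBABE. Ddr2 and Ddr1, receptors for collagen, followed, with 250, 309 and 232 CPM of Ddr2 in caMNK and 309 and 315 CPM in pBABE. Ddr1 measured 51.2, 36.7 and 55.5 CPM in caMNK, against 44.8 and 43.5 CPM in pBABE. caMNK replicate 2 was the highest caMNK library for Ddr2 and the lowest for Ddr1 and Epha2, and the groups overlapped for all 3 genes. Their log2 fold changes were -0.17 (SE 0.119) for Epha2, -0.24 (SE 0.123) for Ddr2 and 0.11 (SE 0.161) for Ddr1, with adjusted p-values of 0.414, 0.259 and 0.712. By kilobase of summed exons in place of the deposited length, 7 of the 10 highest were shared, and Fgfr2, Mertk and Met replaced Ddr1, Tyro3 and Pdgfra.

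Fgfr1, a receptor for fibroblast growth factors, measured 116, 127 and 117 CPM in caMNK, against 138 and 125 CPM in pBABE (adjusted p = 0.416). Fgfr3 and Fgfr4 had 30 and 5 counts over the 5 libraries, too few to test. Fgfr3 shares reads with G630022F23Rik, which had 3 counts.

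The Fgfr2 entry cannot be read as a level of the FGFR2 receptor. It held 743, 777 and 736 CPM in caMNK and 806 and 803 CPM in pBABE, with a log2 fold change of -0.10 (SE 0.080, adjusted p = 0.485). Its deposited length is 2960900 bases, from 130162451 to 133123350 on chromosome 7 (GRCm38), whereas RefSeq gives the gene 104358 bases, from 130162451 to 130266808. Inside the deposited span lie 39 other genes. A set of 30 of them that do not overlap each other held 118846 counts over the 5 libraries, 81.5% of the 145795 counts of the entry, and between 81.1% and 82.3% in each library. The mitotic checkpoint gene Bub3 alone made up 19.95% and the ornithine aminotransferase gene Oat 9.48%. Ctbp2, a transcriptional corepressor gene with 135788 of its 136792 bases inside, had counts equal to another 7.44%. How many of the remaining counts came from Fgfr2 itself was not measured.

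**Figure D2:**
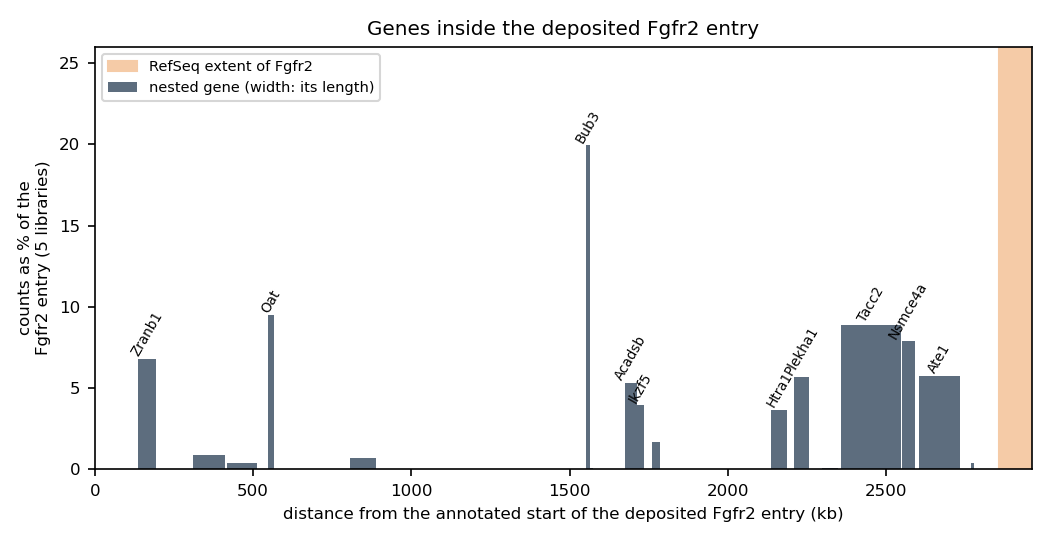
Counts of the 30 genes nested in the deposited Fgfr2 entry that do not overlap each other, as a percent of the counts of the entry over the 5 libraries, against distance from the annotated start of the entry in kilobases. Bar width is the length of the gene, drawn no narrower than 8 kb; the shaded stretch, at the far end, is the RefSeq extent of Fgfr2, and Bub3 is the highest bar at 19.95%.

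Of the 5 receptors of the PDGF class, 3 met the expression threshold, among them Csf1r, whose counts are uncertain. Pdgfra and Pdgfrb, which bind platelet-derived growth factors, were both expressed. Pdgfra measured 44.0, 44.4 and 38.1 CPM in caMNK and 45.5 and 54.5 CPM in pBABE (log2 fold change -0.24, SE 0.113, adjusted p = 0.218). Pdgfrb measured 46.5, 57.5 and 44.2 CPM in caMNK and 64.1 and 55.0 CPM in pBABE (-0.27, SE 0.130, adjusted p = 0.235). The Pdgfra libraries did not overlap between the groups and those of Pdgfrb did. Fibroblasts and mural cells also carry PDGF receptors: 8 fibroblast markers, of which Thy1 and Lum stayed at or under 0.054 CPM, summed to 321 to 423 CPM in caMNK and 276 to 337 CPM in pBABE. Of these, Col1a2 and Fap rose and Col1a1 fell. Apart from Col1a1 and Col1a2, no fibroblast marker exceeded 2.8 CPM in any library. The 6 mural markers summed to 174 to 189 CPM in caMNK and 196 to 216 CPM in pBABE. Most of this sum was Cspg4, which is also on the co-receptor list below, at 152 to 167 CPM in caMNK and 176 and 199 CPM in pBABE. Rgs5 rose, while Cspg4 (-0.21 on the log2 scale), Acta2 (-0.20) and Notch3 (-0.23) lay lower in caMNK and did not pass. Myh11 and Des stayed at or under 0.22 CPM. The part of both lists in the PDGF receptor values was not tested. Kit had 2, 0 and 2 counts in the caMNK libraries and 1 and 0 counts in the pBABE libraries. Flt3, a receptor of blood progenitors, measured 0.837, 0.514 and 0.405 CPM in caMNK and 0.336 and 0.217 CPM in pBABE, from 85 counts in all. Its groups did not overlap, and it did not pass (2.01-fold higher in caMNK, SE 0.434 on the log2 scale, adjusted p = 0.188).

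Csf1r, the receptor for macrophage colony-stimulating factor, measured 12.5, 10.7 and 13.7 CPM in caMNK and 11.4 and 12.6 CPM in pBABE (adjusted p = 0.891). Its 2266 counts cannot be assigned to the receptor with certainty, because 873 bases of the gene overlap Hmgxb3, which had 9829 counts and lies on the other strand. The macrophage markers C1qa, Lyz2, Fcgr1, Adgre1, Ptprc and Itgam each stayed at or under 0.14 CPM in every library, and C1qa had no count. Of the 8 macrophage markers, Cd68 and Cd14 exceeded 1 CPM, and the summed level of the 8 was 5.35 to 8.03 CPM in caMNK and 5.30 to 5.37 CPM in pBABE.

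Flt1, the VEGF receptor 1 gene, fell in caMNK. It measured 84.9, 95.9 and 86.9 CPM in the caMNK libraries, against 114 and 123 CPM in the pBABE libraries. Every caMNK library lay below both pBABE libraries, and the gene was 1.33-fold lower in caMNK (log2 fold change -0.41, SE 0.092, edgeR adjusted p = 0.0335). FLT1 binds VEGFA, VEGFB and placental growth factor and also occurs as a secreted form without a kinase, which counts per gene body do not separate. The other VEGF receptor genes, Kdr and Flt4, had 13 and 19 counts in all. Among endothelial markers Cdh5, VE-cadherin, measured 2.27, 2.47 and 2.81 CPM in caMNK and 4.89 and 8.80 CPM in pBABE and fell (adjusted p = 0.0141). Of the 7 endothelial markers, Cdh5 and Egfl7 were above 1 CPM, Pecam1 stayed at or under 0.62 CPM, and Erg had no count. Egfl7 (log2 fold change 0.24, adjusted p = 0.468), which overlaps Gm20532, and Pecam1 (1.07, adjusted p = 0.264) lay the other way and did not pass. Vwf, with 24 counts in all, also lay higher in caMNK and was not tested. The median log2 fold change of the 3 tested markers was 0.24. The summed level of the 7 markers was 6.2 to 7.27 CPM in caMNK and 8.23 to 11.8 CPM in pBABE. Its part in the Flt1 result was not tested. The angiopoietin receptor genes were low as well, with no count for Tie1 and 0.697 CPM at most for Tek.

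Among the other genes of the VEGF system, 3 fell, Nrp2, Vegfb and Figf, and the rest of those named here did not pass in either direction. Nrp2, a neuropilin that acts as a co-receptor for VEGF and semaphorins, fell to 288 ± 14.6 CPM in caMNK, against 391 ± 12.8 CPM in pBABE (log2 fold change -0.44, adjusted p = 0.0197). Vegfb fell to 28.9 ± 2.16 CPM in caMNK, against 39.8 ± 1.48 CPM in pBABE (adjusted p = 0.0278), and Figf, the VEGF-D gene, to 6.43 ± 0.987 CPM, against 9.82 ± 0.526 CPM (adjusted p = 0.0456). Vegfa did not pass, at 78.4 ± 9.33 CPM in caMNK and 83.0 ± 0.145 CPM in pBABE (adjusted p = 0.680), nor did Nrp1, at -0.43 on the log2 scale (adjusted p = 0.0775). Vegfc lay the other way without overlap, at 1.30 ± 0.327 CPM in caMNK and 0.656 ± 0.080 CPM in pBABE, and did not pass (log2 fold change 0.97, adjusted p = 0.0799). Pgf, the gene of placental growth factor, measured 20.9 ± 3.51 CPM in caMNK and 17.5 ± 1.64 CPM in pBABE (0.25, adjusted p = 0.325). The 5 ligand genes named here were picked after their values were seen.

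Ptk7, a pseudokinase of Wnt and planar cell polarity signalling, was the receptor that rose. It measured 5.26, 4.61 and 5.81 CPM in the caMNK libraries, against 2.64 and 2.29 CPM in the pBABE libraries. All caMNK libraries lay above both pBABE libraries, and the gene was 2.11-fold higher in caMNK (log2 fold change 1.07, SE 0.174, edgeR adjusted p = 0.0116). This call rests on 774 counts over the 5 libraries. The whole of Ptk7 (chromosome 17, 46564471 to 46629504, minus strand) lies inside Gm26904 on the other strand, and reads of the 2 strands were not told apart. Gm26904 had 133502 counts over the 5 libraries and differed by -0.07 on the log2 scale (SE 0.095, adjusted p = 0.690). A set of 16 of its nested genes that do not overlap each other, Ptk7 among them, held 90.4% of those counts.

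Of the other receptors of Wnt ligands, Ryk, a pseudokinase, was expressed. It measured 110, 115 and 108 CPM in caMNK and 115 and 115 CPM in pBABE (log2 fold change -0.04, SE 0.081, adjusted p = 0.779). Ror1 had 3, 10 and 7 counts in caMNK, against 1 and 0 counts in pBABE, and Ror2 stayed at or under 0.383 CPM. Musk, the muscle receptor for agrin signals, had 12 counts in all. Wnt5a, a ligand of ROR and RYK receptors, fell to 3.35, 3.76 and 3.81 CPM in caMNK, against 6.69 and 7.16 CPM in pBABE (-0.92, SE 0.139, adjusted p = 0.00941).

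Ephb2, a receptor for ephrin-B ligands, fell. It measured 4.67, 3.99 and 4.57 CPM in the caMNK libraries, against 8.16 and 6.82 CPM in the pBABE libraries. The groups did not overlap, and the gene was 1.71-fold lower in caMNK (log2 fold change -0.77, SE 0.148, edgeR adjusted p = 0.0193). Ephb3 lay the other way, with 18.9, 15.8 and 18.3 CPM in caMNK and 14.3 and 13.2 CPM in pBABE, again without overlap, and did not pass (0.36, SE 0.119, adjusted p = 0.0998). Ephb4, the most abundant ephrin-B receptor per kilobase, measured 47.9, 45.9 and 56.6 CPM in caMNK and 49.8 and 52.6 CPM in pBABE (adjusted p = 0.891). Ephb6, a pseudokinase, measured 11.4, 9.34 and 11.0 CPM in caMNK and 9.64 and 8.55 CPM in pBABE (adjusted p = 0.361), and Ephb1 had 3 counts in all. Of the ephrin-B ligands, chosen after their values were seen, Efnb2 measured 87.7 ± 4.16 CPM in caMNK and 79.6 ± 1.5 CPM in pBABE and Efnb1 15.6 ± 1.2 and 17.6 ± 0.121 CPM. Efnb3 measured 3.52, 1.75 and 2.22 CPM in caMNK and 0.984 and 1.30 CPM in pBABE, without overlap, the largest difference of the 3 (log2 fold change 1.11, SE 0.329, adjusted p = 0.0755). None of the 3 passed the test.

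Of the 8 ephrin-A receptors, 4 were expressed, Epha2, Epha5, Epha7 and Epha1, and 0 were called. Epha5, which is best known from the nervous system, measured 26.1, 32.5 and 21.8 CPM in caMNK and 24.8 and 23.5 CPM in pBABE (adjusted p = 0.585). Epha7 measured 3.31, 3.87 and 4.03 CPM in caMNK and 3.98 and 5.08 CPM in pBABE (adjusted p = 0.372). The 2.98 to 3.92 CPM of Epha1 in caMNK and 2.14 to 3.00 CPM in pBABE (adjusted p = 0.233) come from 589 counts. Its end overlaps 1727 bases of the cytoskeletal gene Zyx, which had 26979 counts, so its level is uncertain. Epha4 lay under 1 CPM in pBABE, and Epha3, Epha6 and Epha8 had between 2 and 39 counts in all.

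**Figure D3:**
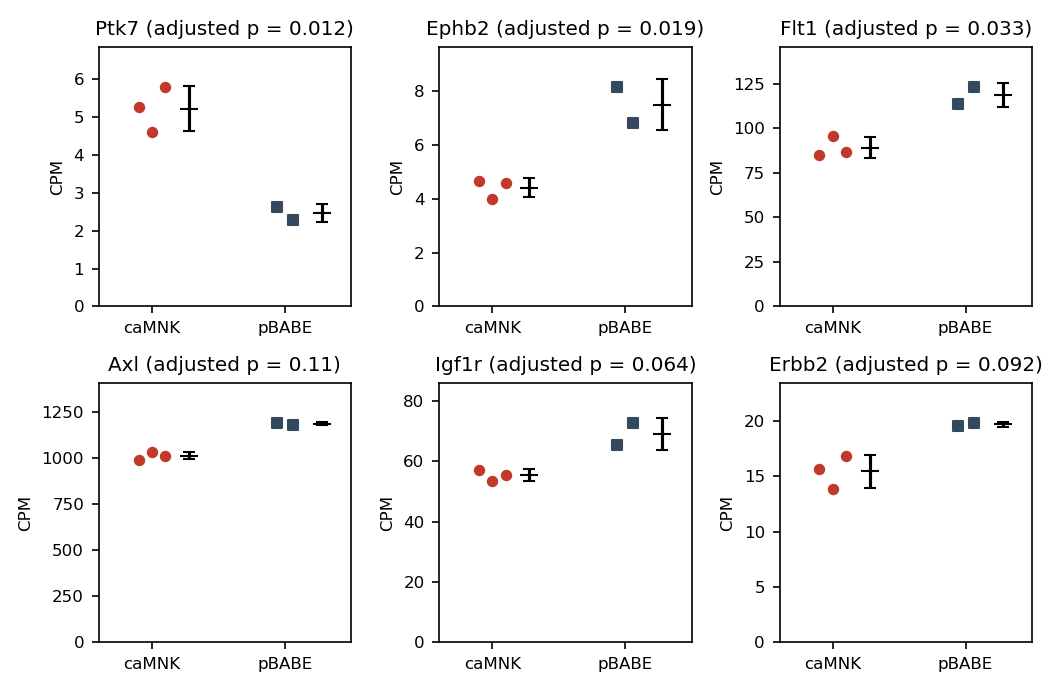
CPM per library for the 3 called receptors (upper row) and for Axl, Igf1r and Erbb2, which were not called (lower row); circles are the 3 caMNK libraries, squares the 2 pBABE libraries, and bars the mean and SD. The groups do not overlap in any of the 6 panels; Ptk7 is higher in caMNK and Flt1 and Ephb2 lower.

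The insulin receptor family was expressed. Igf1r, the receptor for insulin-like growth factors, measured 57.1, 53.4 and 55.5 CPM in caMNK and 65.2 and 72.7 CPM in pBABE. The libraries did not overlap, and the test was missed (log2 fold change -0.32, SE 0.089, adjusted p = 0.0643). Insr measured 72.3, 76.3 and 69.5 CPM in caMNK and 68.9 and 76.5 CPM in pBABE, with a log2 fold change of 0.00 (SE 0.091). Met, the receptor for hepatocyte growth factor, measured 76.0, 91.3 and 61.7 CPM in caMNK and 92.5 and 102 CPM in pBABE (-0.35, SE 0.15, adjusted p = 0.184). caMNK replicate 2 lay close to the pBABE libraries. Mst1r, the relative of Met, had 5 counts in all.

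In the ERBB family, Erbb2, a receptor without a ligand of its own that pairs with the other members, was the member at 1 CPM or more in both pBABE libraries. It measured 15.7, 13.9 and 16.8 CPM in caMNK, against 19.5 and 19.9 CPM in pBABE (log2 fold change -0.35, SE 0.113, adjusted p = 0.0923). It overlaps Mien1 by 9 bases. Egfr measured 1.36, 1.05 and 0.676 CPM in caMNK and 0.504 and 0.651 CPM in pBABE (0.83, SE 0.352, adjusted p = 0.182). Erbb3 measured 0.139, 0.165 and 0.135 CPM in caMNK and 0.336 and 0.372 CPM in pBABE, from 43 counts (-1.23, SE 0.408, adjusted p = 0.0997). Groups did not overlap for these 3 genes, and none of the 3 passed. Erbb4 had 12 counts in all. Ligands of EGFR were among the genes that rose: Areg to 147 ± 22.8 CPM in caMNK, against 71.2 ± 9.39 CPM in pBABE, Ereg to 145 ± 6.71 CPM, against 89.9 ± 14.5 CPM, and Btc to 46.2 ± 2.40 CPM, against 27.9 ± 2.33 CPM. Their adjusted p-values were 0.00811, 0.0123 and 0.00787. The other EGFR ligands, named after their values were seen, did not pass. Hbegf measured 112 ± 13.7 CPM in caMNK and 82.0 ± 8.88 CPM in pBABE (log2 fold change 0.45, adjusted p = 0.0625). Tgfa lay the other way without overlap, at 1.37 ± 0.327 CPM in caMNK and 2.18 ± 0.066 CPM in pBABE (-0.68, adjusted p = 0.111). Egf differed by -0.24 (adjusted p = 0.699), and Epgn, with 28 counts in all, was not tested.

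Several receptors with tissue-restricted roles were at or near the floor of detection, whereas Epha5, described above, was not. No count was found for Tie1 or for Ntrk2, the BDNF receptor gene, which allows up to 3 counts per library, or 0.062 to 0.105 CPM in caMNK and 0.072 to 0.093 CPM in pBABE. Ntrk3 had 11 counts over the 5 libraries, Alk 33, Ret 7, Ltk 3 and Ros1 1. In all, 20 receptors were too low to test, with 39 counts at most over the 5 libraries and at most 0.494 CPM in any library. The limits cover counting error only.

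Outside Fgfr2, 8 pairs of receptor genes lie next to each other within 1000 kb, and in 2 of them both genes were expressed. These were Pdgfrb and Csf1r, 15.5 kb apart, at 1.49 and 0.451 CPM per kilobase in pBABE, and Ephb6 and Epha1, 738 kb apart, at 0.605 and 0.174. The levels of Csf1r and Epha1 are uncertain, because they share reads with overlapping genes. In the other pairs at least 1 gene was not expressed. On chromosome 5, Pdgfra stood at 1.09 CPM per kilobase in pBABE, and Kit, 377 kb away, and Kdr, another 276 kb on, had 5 and 13 counts in all. Flt1 and Flt3 lie 161 kb apart on the same chromosome and stood at 0.721 and 0.004 CPM per kilobase in pBABE. Tyro3, 37.3 kb from Ltk on chromosome 2, stood at 1.58 CPM per kilobase, and Ltk had no count in pBABE. Ephb2 lies 93.4 kb from Epha8 on chromosome 4, which had 2 counts in all.

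Taking the 31 tested receptors by direction alone, 15 (48.4%) had groups that did not overlap, beside 44.9% of all tested genes. Of these, 5 were higher in caMNK, or 16.1% beside 22.3% of all tested genes, and 10 were lower, or 32.3% beside 22.6%. Fgfr2 is among the 10, and 9 were lower without it. The summed level of the list without Fgfr2 was 2389, 2473 and 2382 CPM in caMNK and 2727 and 2777 CPM in pBABE, with Axl making up between 41.6% and 43.8% of it. For the 22 expressed receptors that were not called, 21 without Fgfr2, log2 fold changes lay between -0.35 and 0.44. Each had a 95% interval inside a 2-fold change either way, the widest bounds being -0.69 and 0.92. A missed threshold does not show that their levels were equal.

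**Figure D4:**
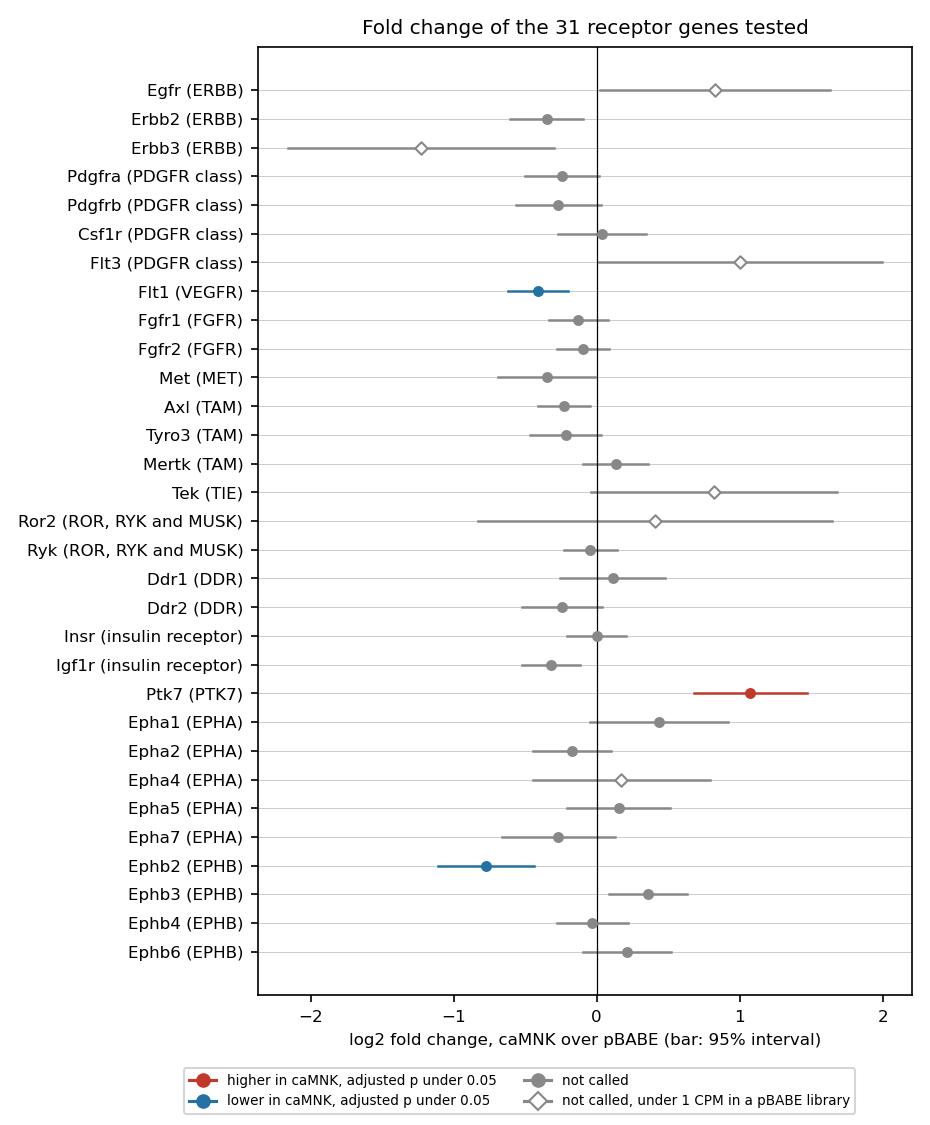
Log2 fold change of caMNK over pBABE with its 95% interval for the 31 receptor genes tested, ordered by family (edgeR; n = 3 and 2 libraries). Ptk7 is coloured as higher in caMNK and Flt1 and Ephb2 as lower; open diamonds, with wide intervals, are genes under 1 CPM in a pBABE library.

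The calls depended on single libraries. All 3 were lost without caMNK replicate 1 (adjusted p of 0.0563 for Ptk7, 0.160 for Flt1 and 0.0715 for Ephb2). Over all genes, 175 were then called higher and 80 lower, against 753 and 599 with all 5 libraries. The 3 calls also did not hold without either pBABE library, which leaves 1 in that group, and far fewer genes were called over all genes. Without pBABE replicate 1 the log2 fold changes were 1.17 for Ptk7, -0.48 for Flt1 and -0.64 for Ephb2. Without pBABE replicate 2 they were 0.98, -0.35 and -0.90. Without caMNK replicate 2, 4 receptors were called higher and 9 lower, and 29.6% of all genes were called. The added receptors were Epha1, Ephb3 and Ddr1 among the higher and Axl, Ddr2, Pdgfra, Pdgfrb, Met, Igf1r and Erbb2 among the lower.

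Other genes of the pathway were followed in 5 lists, with 11 genes called higher and 12 lower in all. These counts were 4 and 1 without caMNK replicate 1, beside 175 and 80 over all genes. Without caMNK replicate 2 they were 35 and 31, beside 2325 and 2617 over all genes. Leaving out either pBABE library leaves 1 in that group, and far fewer genes were then called, in the lists and over all genes. Of 66 ligand genes, 50 were tested, 6 rose and 5 fell (22.0%, beside 7.94% of all tested genes). Their median log2 fold change was 0.16. Artn, a ligand of the RET system, rose to 9.94 ± 0.421 CPM in caMNK, against 4.90 ± 0.132 CPM in pBABE (adjusted p = 0.00537), while Ret had 7 counts in all. Beside Areg, Ereg and Btc, the rises were in Fgf13 and Mdk, both under 1 CPM in every library. The falls were in Wnt5a, Vegfb, Figf, Pdgfd and Csf1, a ligand of CSF1R, at -0.39 on the log2 scale (adjusted p = 0.0264). Il34, also a ligand of CSF1R, lay the other way without overlap and did not pass (0.35, adjusted p = 0.0504). It overlaps Gm15894. Those outside the 5 lowest p-values, Vegfb, Figf, Pdgfd, Csf1, Il34, Mdk and Fgf13, were named after their values were seen.

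Of 22 co-receptor genes, 19 were tested, 0 rose and 2 fell (10.5%, beside 7.94% of all tested genes). These were Nrp2 and Gpc1, a heparan sulfate proteoglycan gene that measured 179 ± 16.6 CPM in caMNK and 248 ± 1.01 CPM in pBABE (adjusted p = 0.0247). At an unadjusted p under 0.05 (edgeR) there were 9 of the 19, beside 25.9% of all tested genes. The same limit held for 11 of the 31 tested receptors and 28 of 50 ligands. It held for 10 of 37 adaptors, 9 of 25 inhibitors and 5 of 14 shedding genes. Gpc2 (log2 fold change 1.28, adjusted p = 0.0561), which overlaps Gm43720, and Fgfrl1, an FGF receptor relative without a kinase domain (0.49, adjusted p = 0.128), did not pass. Of 40 adaptor and effector genes, 37 were tested, 1 rose and 1 fell (5.41%). Vav3, a gene of an adaptor and exchange factor, measured 15.2 ± 1.09 CPM in caMNK and 10.1 ± 1.68 CPM in pBABE (adjusted p = 0.0343). Irs2, an adaptor of the insulin and IGF1 receptors that overlaps 609 bases of 9530052E02Rik, fell to 10.7 ± 1.51 CPM in caMNK, against 17.1 ± 0.006 CPM in pBABE (adjusted p = 0.0218). Ptpn11, the SHP2 phosphatase gene (-0.26), Stat3 (-0.25), which overlaps Stat5a, and Frs3 (0.69), which overlaps Gm21981, did not pass.

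Of 27 genes of receptor inhibitors, 25 were tested, 3 rose and 2 fell, or 20% beside 7.94% of all tested genes. Spry4, a feedback inhibitor of ERK signalling, measured 108 ± 8.80 CPM in caMNK and 68.3 ± 4.82 CPM in pBABE (adjusted p = 0.0103). Cblb, a ubiquitin ligase that marks activated receptors for breakdown, rose to 40.8 ± 0.939 CPM in caMNK, against 27.5 ± 1.79 CPM in pBABE (adjusted p = 0.0116). Lrig2 rose 1.34-fold (adjusted p = 0.0416). The receptor-type phosphatase genes Ptprb and Ptprk fell, Ptprb to 0.405 ± 0.041 CPM in caMNK, against 1.41 ± 0.148 CPM in pBABE (adjusted p = 0.00827), and Ptprk 1.27-fold (adjusted p = 0.0387).

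Of 14 genes of receptor shedding, all tested, 1 rose and 2 fell (21.4%, beside 7.94% of all tested genes). Timp3, an inhibitor of the sheddase ADAM17, measured 88.1 ± 12.3 CPM in caMNK and 51.1 ± 0.576 CPM in pBABE (adjusted p = 0.0103). It overlaps Syn3 on the other strand over 49135 bases. The metalloproteinase genes Adam9 and Adam19, the second of which overlaps Gm16033, fell 1.37-fold and 1.34-fold (adjusted p of 0.0158 and 0.0406). Adam10 (-0.37) and Adam17 (-0.22), which overlaps Iah1, did not pass.

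**Figure D5:**
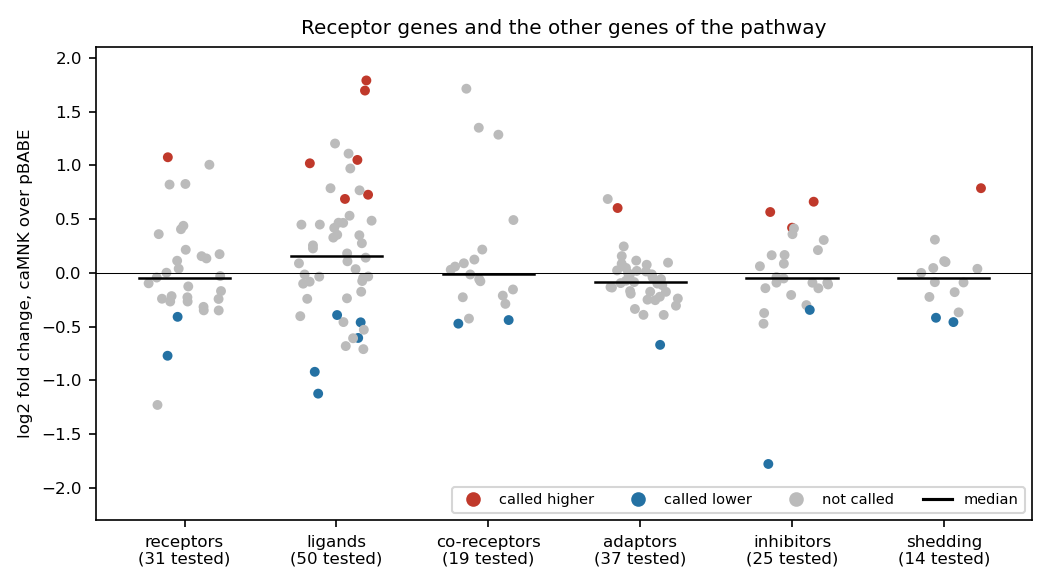
Log2 fold change of caMNK over pBABE for every tested gene of the receptor list and of the 5 pathway lists; each point is 1 gene, coloured points were called, and black lines are medians. The receptors have 3 coloured points among 31, and the ligands 11 among 50 with a median of 0.16.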

How the data were processed

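RNA of D4M.3A cells was sequenced in 3 caMNK and 2 pBABE libraries, grouped by their titles. The series text calls them biological replicates without saying how cultures were kept apart, so p-values measure the spread between these libraries. Per the labels' protocols, libraries were made from total RNA with a stranded total RNA kit. The deposited files hold raw read counts per gene and a gene length. Per the submitters' processing notes, Trimmomatic 0.32, STAR 2.5.3, featureCounts 1.5.3 and DESeq2 were used with build mm10; no annotation release or counting setting is stated in the sources used here. Lengths and overlaps were checked against GENCODE release M21 on the same build.

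Counts were tested with edgeR 4.0.16 in R 4.3.3: filterByExpr by group, TMM scaling, the robust quasi-likelihood F test on the 5 libraries with group and no other term, and Benjamini-Hochberg adjustment over the 17026 genes that passed the filter. Log2 fold changes are caMNK over pBABE. The SE was derived from each log2 fold change and the F statistic of its test, and 95% intervals use the test's own degrees of freedom. The procedure was checked on simulated data. DESeq2 1.42.0 and limma 3.58.1 served as alternatives. The receptors and lists were chosen with earlier results of these data known, so no list was tested as a set. Named in full are called receptors, the 10 highest per kilobase in pBABE, and of each pathway list the 5 genes with the lowest p. Promoters come from RefSeq on GRCm38.p6; protein sequences were not used here.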

Additional observations from a re-analysis of the deposited data

How the results depend on the processing

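With 2 and 3 libraries, single libraries set the counts. Leaving out 1 library at a time, all genes called higher ranged from 11 to 2325 and lower from 12 to 2617 (753 and 599 with all), receptors called higher from 0 to 4 and lower from 0 to 9, and pathway list genes higher from 0 to 35 and lower from 0 to 31 (11 and 12 with all). Where edgeR called 0 receptors, 7 had an unadjusted p under 0.05 and DESeq2 called 1 (pBABE replicate 1 left out), 3 and 0 (pBABE replicate 2 left out), and 6 and 2 (caMNK replicate 1 left out). Log2 fold changes ranged from 0.98 to 1.17 for Ptk7, -0.48 to -0.35 for Flt1 and -0.90 to -0.64 for Ephb2.

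Without a filter on low counts, 1591 genes were called higher and 1330 lower, with 3 and 4 receptors and 27 and 20 pathway genes. Leaving out genes that share reads gave 412 and 305 genes, and 0 receptors higher because Ptk7 is among those left out. With the replicate block, 1477 and 1231 genes were called, 3 and 4 receptors and 26 pathway genes higher. In that fit caMNK replicate 3 has no pBABE library of the same number, so it does not inform the fold changes. The numbers do not pair the libraries by the labels, and same-numbered libraries had correlated deviations of -0.055 and -0.025. Pathway genes called higher were 17 with total-count scaling and 18 by DESeq2. Total-count scaling gave 999 rises and 465 falls over all genes. Receptors expressed in pBABE numbered 25, or 27 at 0.5 CPM, 29 at 10 counts and 22 at 5 CPM. Ptk7, Flt1 and Ephb2 were called by DESeq2, limma-voom and both other scalings.

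Directions that turned belong to receptors near 0 that were not called with all 5 libraries: with the block, Csf1r -0.049 and Ddr1 -0.026; with total-count scaling, Ryk 0.0094 and Ephb4 0.024; and without a filter, Insr -0.0082. With single libraries left out, the ranges were -0.047 to 0.14 for Csf1r, -0.010 to 0.27 for Ddr1, -0.085 to 0.073 for Insr, -0.016 to 0.29 for Epha5 and -0.13 to 0.031 for Ephb4. The cause was not tested.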
